A study of Mus musculus with 98 samples.

Results

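Among 67 innate lymphoid cells regenerated from pluripotent stem cells (R9-ILCs) and taken from mouse intestine, 35 carried the title ending 1, and these were split by the RNA of Epcam, a gene of gut epithelium. Cells with Epcam at 1 TPM or more (a length-corrected share of transcripts, which scales every cell to the same total) were called Epcam-positive, and this gave 14 cells. The other 21 cells, under 1 TPM, were called Epcam-negative. The series held 98 columns in all, of which 32 R9 columns had titles without an ending and 31 came from wild-type cells. The members were chosen by a measured value in the same cells, so every difference below is a description with no test.

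All 35 cells were sorted as CD45.2+GFP+Lin-CD127+ cells from the gut of Rag2-/-Il2rg-/- recipients, 3 weeks after transplantation, and are labelled as strain C57BL/6. Lin- means that cells with surface markers of other blood lineages were left out, and CD127 is the interleukin 7 receptor. The hosts lack Rag2 and Il2rg, so they have no T, B or innate lymphocytes of their own that need these genes, but their gut epithelium is their own. The WT-ILCs used for comparison were CD45.2+Lin-CD127+ cells of wild-type C57BL/6 intestine, from animals 8 weeks old, sorted with no GFP gate. No label names an animal or says what the title endings mean, and each sample is 1 cell, so each group counts as 1 sample and spreads are given over cells.

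EpCAM is a cell surface glycoprotein that sits along the sides of epithelial cells. It binds claudin 7 and keeps it at the membrane, and the protease inhibitors Spint1 and Spint2 protect it from cleavage by matriptase, the product of St14. Group 3 ILCs (ILC3s) are gut lymphocytes that act on the epithelium through interleukin 22 and lymphotoxin. They lie beside epithelial cells in the gut wall and are not known for a keratin or claudin program of their own.

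Id2, which all ILCs need, and Il7r, which encodes the sorted CD127 protein, were at 1 TPM or more in 35 of 35 cells. Detection at this level does not by itself show what a cell is. The library of cell 1-1 (cells are named by the number in their title) was low in these genes and in Ltb. Its Ltb was at 52.5 TPM, Id2 at 142 TPM and Il7r at 91.8 TPM, where the medians of the negative cells were 6163 TPM, 4056 TPM and 1169.7 TPM. Only for Ltb was it the lowest of the 35 cells. Id2 was lower in 27-1, at 104 TPM, and Il7r was lower in the negative cell 6-1, at 12.9 TPM. The T cell list had 0 members tested, with 5 of 8 under 1 TPM in every cell. Cd3g, which encodes a CD3 subunit and stands in the core ILC list here, was at 6165 TPM in 34-1 and 5445 TPM in 8-1 of the positive cells and at 3874 TPM in 20-1 and 3774 TPM in 28-1 of the negative cells. It was detected in 8 of 14 and 17 of 21 cells, with a difference of -0.05 that was 3.22 among cells with like numbers of genes (2011 to 2915). The closest pair of the 35 columns was 1-1 with 27-1, at a Pearson r of 0.56 across the genes that both detected, so no column repeated another.

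Epcam itself (chromosome 17, 87635979 to 87651129, GRCm38) was listed at 0 TPM in all 21 negative cells. In the 14 positive cells it ran from 1.39 TPM through a median of 5.97 TPM to 1295 TPM. The values just inside the threshold were 1.39, 1.46, 1.61, 1.65, 1.95 and 2.23 TPM, and no cell lay between 0 and 1 TPM. A gap separated 10 cells at up to 16.4 TPM (cell 23-1) from 4 cells at 198 TPM (27-1), 204 TPM (42-1), 549.6 TPM (21-1) and 1295 TPM (1-1).

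The same 4 cells had the most detected genes. Genes at 1 TPM or more numbered 5310 in 27-1, 4549 in 42-1, 6042 in 21-1 and 5787 in 1-1, the only cells of the 35 above 4000. The positive cells had a median of 3205 genes (range 2011 to 6042) and the negative cells a median of 2361 (1913 to 2915). Without the 4 cells the remaining 10 positive cells had a median of 2833 genes (2011 to 3276). TPM keeps no depth, so genes per cell is the nearest view of it, and its part in the differences was not tested. Most list counts below are given with and without the 4 cells.

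**Figure D1:**
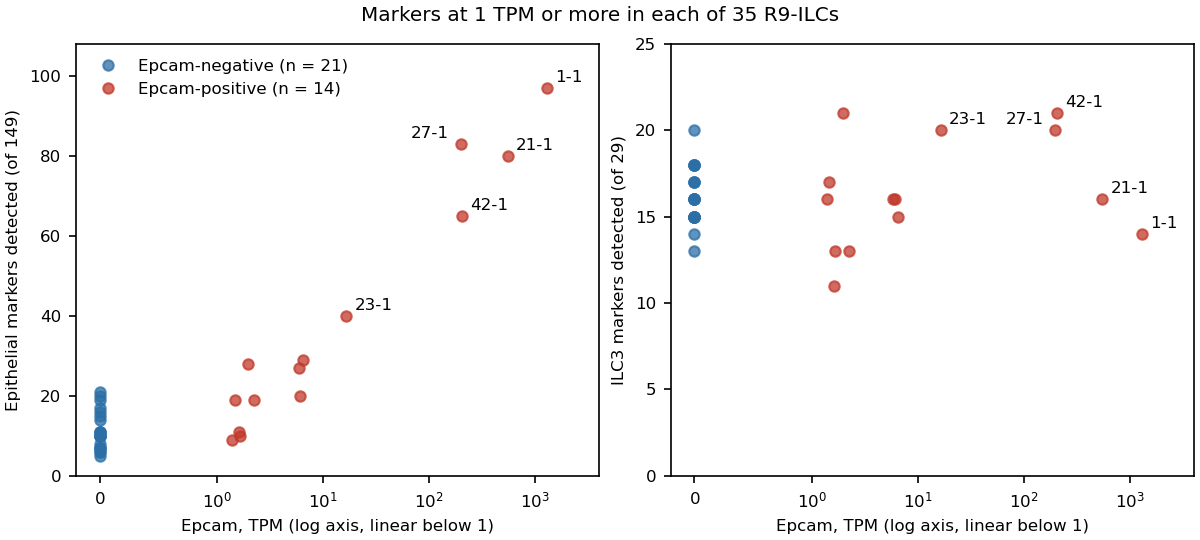
Number of markers at 1 TPM or more against Epcam TPM in each of the 35 cells, for 149 epithelial genes (left) and 29 ILC3 genes (right). The 4 cells at 198 TPM of Epcam or more hold 65 to 97 epithelial markers, all other cells hold 40 or fewer, and ILC3 markers number 11 to 21 over all 35 cells.

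Epithelial RNA came with Epcam mainly in those 4 cells, beside ILC genes whose levels differed from cell to cell. Of 149 epithelial markers (6 lists: nutrient uptake, brush border, junctions and keratins, transcription factors, defence, goblet and Paneth), 1-1 held 97, 27-1 held 83, 21-1 held 80 and 42-1 held 65. The 10 other positive cells held 9 to 40, with a median of 19.5, and the negative cells held 5 to 21, with a median of 10. Of 29 ILC3 markers the same 4 cells held 14, 20, 16 and 21 in that order, against 13 to 20 in negative cells. Cells 27-1 and 42-1 thus lay at the top of the range for ILC3 markers while holding over 3 times as many epithelial markers as any negative cell.

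Epithelial markers made up 3.95% of all TPM in 1-1, 3.34% in 42-1, 3.1% in 21-1 and 0.708% in 27-1. The share was 0.0172% to 0.339% in the 10 other positive cells and 0.0355% to 0.819% in negative cells. By share of TPM, then, 27-1 lay inside the range of the negative cells and none of the 10 low positive cells lay above it. In the negative cells the RNA came from a few genes each: Fabp1 was at 2241 TPM in 14-1 and 2139 TPM in 31-1, Krt8 at 713.7 TPM in 12-1 and 590.1 TPM in 9-1, and Tff3 at 1745 TPM in 32-1.

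Across all genes the split itself moved much of the table. Of 5843 genes detected in 5 or more cells, 31.9% were higher in positive cells by at least 1 on the scale of mean log2(TPM + 1), and 8.04% were lower. The median difference was 0.49. Without the 4 cells the shares were 20.7% higher and 17.1% lower, with a median of 0.06. A gene held by few or no negative cells passed the filter through positive cells and had to be higher. Among the 5843 genes 142 (2.43%) were detected in 0 negative cells, and among the 53 tested epithelial markers 7 (13.2%) were. Counts of list members are therefore a description, to be read beside these shares, and support nothing on their own.

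Junction and keratin genes, which hold epithelial cells together, formed the list with the most members past that difference. Of 32 listed genes 16 were detected in enough cells, 3 were under 1 TPM in every cell, and 14 of the 16 were higher by at least 1 and 0 lower. The median difference was 2.04 with the 4 cells and 0.52 without them, when 6 of 16 were higher (all genes, 31.9% with and 20.7% without). Of the 16, 3 were detected in 0 negative cells. Averaged over all 32 genes, mean log2(TPM + 1) was 1.90 ± 1.89 (SD over 14 cells) in positive and 0.44 ± 0.24 (SD over 21 cells) in negative cells.

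Cldn7, the claudin that EpCAM binds, was with Bpnt1 the gene whose detection was most like that of Epcam, in the same state in 31 of 35 cells. It was detected in 12 of 14 positive cells (85.7%, exact 95% interval 57.2 to 98.2, counting error only) and 2 of 21 negative cells (9.52%, 1.17 to 30.4). Its TPM in positive cells ran from 0 through a median of 8.26 to 1527, and in negative cells from 0 through 0 to 345. The groups overlapped: cell 25-1 held Cldn7 at 345 TPM with Epcam listed at 0, cell 4-1 held 2.21 TPM, and Cldn7 was listed at 0 in the positive cells 26-1 and 33-1. The difference in mean log2(TPM + 1) was 3.61 with the 4 cells and 1.68 without them.

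Cldn3, a sealing claudin of gut epithelium, was at 1001 TPM in 1-1, 344.5 TPM in 21-1, 165 TPM in 27-1 and 134 TPM in 42-1. In the other positive cells it reached at most 11.1 TPM, and in negative cells at most 1.45 TPM. The difference was 3.26, or 1.39 without the 4 cells, and detection was 11 of 14 against 2 of 21.

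Of the keratins of simple epithelia, Krt8 and Krt19 were at high levels in all 4 cells and others were not. Krt8 was at 3682 TPM in 42-1, 3171 TPM in 1-1, 772 TPM in 21-1 and 526 TPM in 27-1, and at most 31 TPM in the other positive cells. It was detected in 9 of 21 negative cells, where cells 12-1 and 9-1 lay above 500 TPM and the rest at or under 4.19 TPM, so the groups overlapped. Its difference of 3.26 was 0.97 without the 4 cells.

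Krt19, another keratin of simple epithelia, ran from 0 through 13.2 to 3007 TPM in positive cells and from 0 through 0 to 6.7 TPM in negative cells. All 9 cells with Krt19 at 10 TPM or more were Epcam-positive. The difference was 3.93, or 1.80 without the 4 cells. Krt18, the usual partner of Krt8, was at 164 TPM in 21-1, 101 TPM in 1-1 and 16 TPM in 27-1, and listed at 0 in 42-1. Krt7 was at 173 TPM in 42-1 and listed at 0 in 21-1, and Krt20 ran from 5.91 TPM in 21-1 to 241 TPM in 1-1.

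Among other members, Lgals4, which encodes the gut lectin galectin 4, differed by 3.58 (1.43 without the 4 cells), and Phgr1, a small protein gene of gut epithelium, by 3.96 (2.08). Muc13, a transmembrane mucin, was at 1 TPM or more in those 4 cells alone, at 22.1 to 313 TPM. Cdh1, which encodes E-cadherin, was detected in 3 of 14 positive and 0 of 21 negative cells, at 18.6 to 112 TPM, and was listed at 0 in 42-1. The intestinal cadherin gene Cdh17 was detected in 6 of 14 and 0 of 21 cells.

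**Figure D2:**
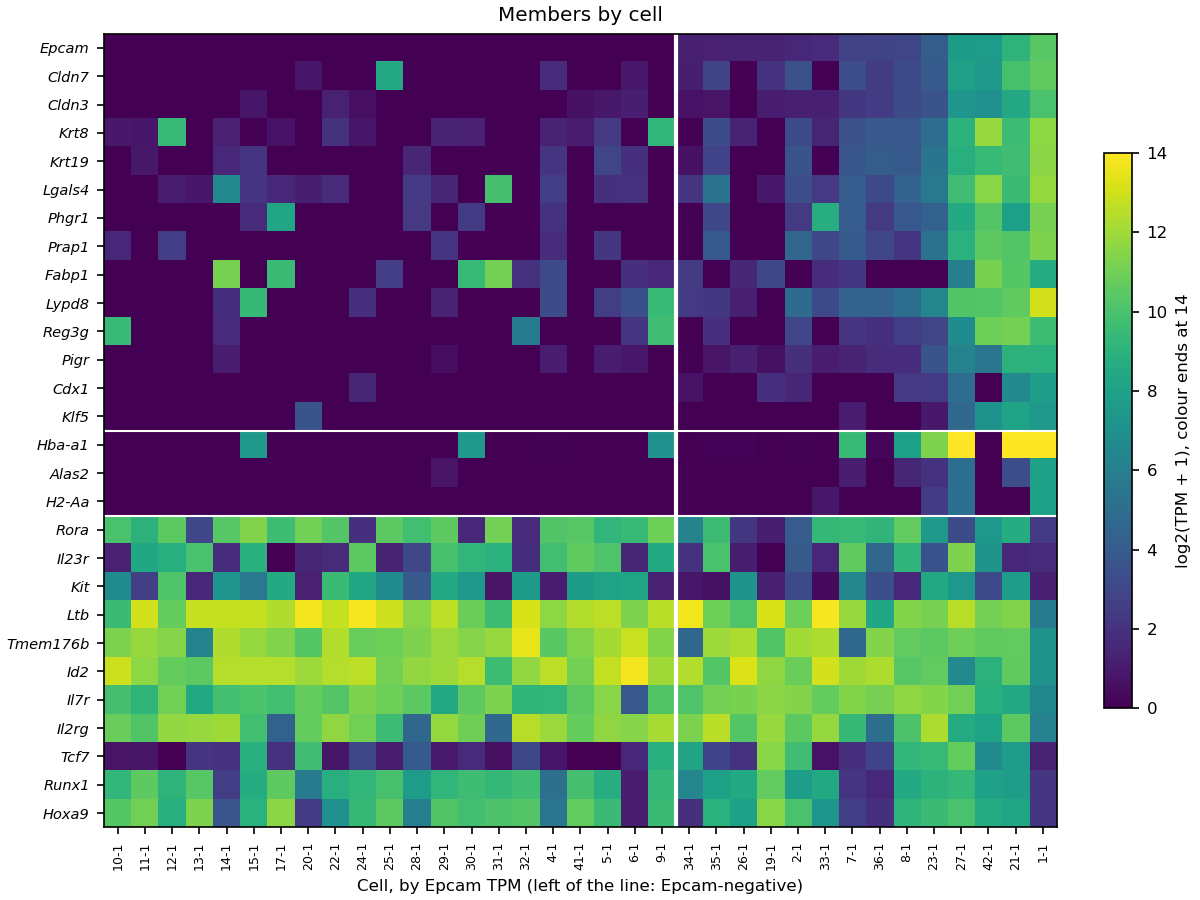
Values of log2(TPM + 1) for 28 genes in the 35 cells, ordered by Epcam TPM, with epithelial genes above, erythroid and class II genes between the thin lines, and lymphoid genes below. The 4 cells on the right hold all but 1 of the 14 epithelial genes (42-1 lists Cdx1 at 0), and 1-1 shows low values for the lymphoid genes.

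Partners of EpCAM and its cleavage showed the same pattern less evenly. Of 21 listed genes, 6 of which (Cldn7, Cdh1, Spint1, Spint2, St14 and Tspan8) also stand in the junction list, 17 were tested, 9 were higher by at least 1 and 0 lower, beside 31.9% of all genes. The median was 1.03, and 0.29 without the 4 cells, with 5 of 17 higher beside 20.7%. Actn4, which encodes an actin crosslinker that can bind EpCAM's tail, was detected in 9 of 14 positive and 0 of 21 negative cells, with a difference of 2.78 that was 2.63 without the 4 cells. Ctnna1, the alpha-catenin of adherens junctions, was detected in 7 and 0 cells, with 2.50 and 2.04. Detected in 0 negative cells, both genes passed the filter through positive cells alone, so the filter fixed their direction.

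Actn4 and Ctnna1 were not highest in the 4 cells. Actn4 was at 5.3 TPM in 1-1, 85.4 TPM in 21-1, 14.6 TPM in 42-1 and listed at 0 in 27-1, and its highest value among the other positive cells was 525.8 TPM. Ctnna1 reached 442 TPM outside the 4 cells and 54.6 TPM at most within them. The tetraspanin gene Cd9 was likewise higher by 3.45, or 2.92 without the 4 cells, with a highest value of 4044 TPM in positive and 4988 TPM in negative cells, so its groups overlapped.

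Spint2, the inhibitor that shields EpCAM, was detected in 14 of 14 positive and 15 of 21 negative cells, with medians of 498.7 and 3.18 TPM and a difference of 2.86, or 1.80 without the 4 cells. It passed 100 TPM in 8 positive and 7 negative cells, so the groups overlapped. Psenen, a subunit of the gamma-secretase that cuts EpCAM's tail, differed by -0.42 (-0.76 without the 4 cells) and was detected in 85.7% of both groups.

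The promoters of Epcam, of its partner Cldn7, and of Prap1, the epithelial gene with the largest difference, are shown because all 3 genes were high in the same 4 cells, Cldn7 also in the negative cell 25-1. Each is the run of 250 bases before the transcript start, 5′ to 3′ on the gene's strand, from RefSeq (GRCm38.p6), with any motif match in capitals. They lie at chr17:87635729-87635978 (plus strand), chr11:69964529-69964778 (plus) and chr7:140093146-140093395 (plus).
Epcam: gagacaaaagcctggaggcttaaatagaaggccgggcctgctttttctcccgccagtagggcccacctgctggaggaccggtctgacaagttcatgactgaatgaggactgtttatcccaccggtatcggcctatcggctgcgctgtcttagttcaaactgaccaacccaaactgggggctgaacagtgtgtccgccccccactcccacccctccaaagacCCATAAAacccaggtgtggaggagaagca
Cldn7: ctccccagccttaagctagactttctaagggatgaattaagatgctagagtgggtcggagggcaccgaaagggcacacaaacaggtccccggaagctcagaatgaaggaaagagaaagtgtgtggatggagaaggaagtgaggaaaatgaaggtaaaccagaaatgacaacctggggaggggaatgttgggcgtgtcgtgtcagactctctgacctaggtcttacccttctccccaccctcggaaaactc
Prap1: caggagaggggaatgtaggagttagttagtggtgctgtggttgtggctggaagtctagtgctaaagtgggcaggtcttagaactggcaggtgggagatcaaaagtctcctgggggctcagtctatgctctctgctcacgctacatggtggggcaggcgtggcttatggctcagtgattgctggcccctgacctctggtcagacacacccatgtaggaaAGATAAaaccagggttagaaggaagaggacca
In the Epcam promoter the capitals mark a match to TTTATNG on the opposite strand, a motif of caudal homeobox factors such as the product of Cdx1. In the Prap1 promoter the capitals mark AGATAA, which factors of the zinc finger family that includes Gata4 and Gata6 bind. None of the letters searched was found in this Cldn7 window.

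Motifs were searched on both strands in 300-base windows (250 before to 50 after the start) of Epcam and the 12 epithelial genes with the largest differences, of which 10 including Epcam matched the promoter table, in 12 windows. AGATAA was in 3 of 12 windows (Krt8, Lypd8 and Prap1), beside 11.2% of 32851 windows. These were the windows of all genes in the promoter table, with those of 1 chromosome left out. TTTATNG was in 1 of 12 (Epcam), beside 10.9%. TTTATTG (4.6% of all windows, and a special case of TTTATNG), CAAAGTCCA (an HNF4 motif, 0.475%) and TGACCTTTG (0.478%) were in 0 of 12. A match is a description of letters and not a binding site.

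Genes of nutrient uptake and digestion, the work of the absorptive enterocyte, were high in the 4 cells and scattered elsewhere. Of 24 uptake genes 8 were tested (6 were under 1 TPM in every cell), 5 were higher by at least 1 and 0 lower, with a median of 1.46. Without the 4 cells 0 were higher and 1 lower, with a median of -0.32. Of 24 brush border and digestive genes 10 were tested (1 was under 1 TPM in every cell), 7 were higher and 1 lower, with a median of 1.46, and 2 and 0 with a median of 0.24 without the 4 cells. Beside them, 31.9% of all genes were higher and 8.04% lower with the 4 cells, and 20.7% and 17.1% without.

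Fabp1, the liver-type fatty acid binding protein gene, did not separate the groups. It was at 2310 TPM in 42-1, 1273 TPM in 21-1, 399.9 TPM in 1-1 and 64.1 TPM in 27-1, and at most 7.11 TPM in the other positive cells. In negative cells it was at 2241 TPM in 14-1, 2139 TPM in 31-1, 755 TPM in 17-1 and 689 TPM in 30-1, so the groups overlapped. Its difference was 0.87, and -1.40 without the 4 cells.

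Prap1, a secreted protein gene of the gut lining, ran from 0 through 13.9 to 2546 TPM in positive cells and from 0 through 0 to 4.92 TPM in negative cells. Every cell with 5 TPM or more was Epcam-positive. Its difference of 4.28 was 2.09 without the 4 cells. Calml4, a calmodulin-like protein gene of the brush border, differed by 2.70, or 0.61 without the 4 cells.

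Alpi, intestinal alkaline phosphatase, was detected in 5 of 14 and 0 of 21 cells, and Vil1, the microvillus protein villin, in 3 of 14 and 0 of 21. Espn, an actin bundler that is also in the brush border list, went the other way, with medians of 9.19 TPM in positive and 136 TPM in negative cells and a difference of -1.15, or -0.64 without the 4 cells.

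Transcription factors of the gut epithelium were rarely detected at all. Of 25 listed genes 10 were under 1 TPM in every cell, 4 were tested, and those 4 were higher by at least 1, with a median of 1.74 that was 0.21 without the 4 cells, when 0 were higher, beside 31.9% and 20.7% of all genes. Isx was detected in 0 negative cells and the other 3 in 1 negative cell at most, so the filter largely fixed their direction. Cdx1, which sets intestinal identity, was at 227 TPM in 1-1, 100.5 TPM in 21-1, 31.2 TPM in 27-1 and listed at 0 in 42-1. Its relative Cdx2, of the same list, was highest in 42-1, at 74.7 TPM. It was at 22.6 TPM in 1-1, 9.5 TPM in 21-1 and 3.5 TPM in 27-1, and under 1 TPM in every other cell. Klf5, a factor of crypt cells, was at 25.1 to 267 TPM in the 4 cells. Isx, which controls vitamin A uptake, was detected in 6 of 14 and 0 of 21 cells.

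Defence genes gave the highest single epithelial value. Of 24 listed genes 23 were in the tables, 8 were under 1 TPM in every cell, 8 were tested, 6 were higher by at least 1 and 0 lower, with a median of 2.36 (0.09 without the 4 cells, with 3 higher), beside 31.9% and 20.7% of all genes. Lypd8, a surface protein that keeps flagellated bacteria from the mucosa, was at 8439 TPM in 1-1 and at 1171 to 1551 TPM in 27-1, 42-1 and 21-1. It was detected in 13 of 14 positive and 8 of 21 negative cells. Cells 9-1 and 15-1 of the negative group held 724 and 664 TPM, so the groups overlapped, and the difference of 4.01 was 1.84 without the 4 cells.

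Pigr, the receptor that carries IgA across the epithelium, was detected in 11 of 14 and 3 of 21 cells, at most 1.21 TPM in the latter, with a difference of 2.91 or 1.19. Dmbt1, a secreted scavenger protein, differed by 2.57 or 1.23. Reg3g, an antibacterial lectin, reached 2174 TPM in 21-1 and 838 TPM in a negative cell, and its difference of 2.41 was 0.07 without the 4 cells.

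Goblet and Paneth genes were mixed. Of 22 listed genes 21 were in the tables, 4 were under 1 TPM in every cell, 7 were tested, and 3 were higher and 0 lower, with a median of 0.81, beside 31.9% and 8.04% of all genes. Without the 4 cells 1 was higher and 1 lower, with a median of -0.47, beside 20.7% and 17.1%. Defa24, a Paneth cell defensin with close copies whose reads cannot be told apart with certainty, was detected in 10 of 14 and 4 of 21 cells, with its highest value of 1386 TPM in 23-1. Tff3, the goblet cell trefoil peptide, was detected in 6 of 14 and 10 of 21 cells, with a difference of -0.29, or -1.90 without the 4 cells. Lyz1, a Paneth lysozyme with the near copy Lyz2, differed by 1.27, and by -0.12 without the 4 cells. Of the enteroendocrine and tuft list 2 of 22 genes were tested, with 1 higher and 1 lower, and 0 and 1 without the 4 cells; the lower gene was Plcg2, a signalling enzyme that lymphocytes also use, at -2.52. Crypt stem cell genes gave 0 members tested of 17.

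**Figure D3:**
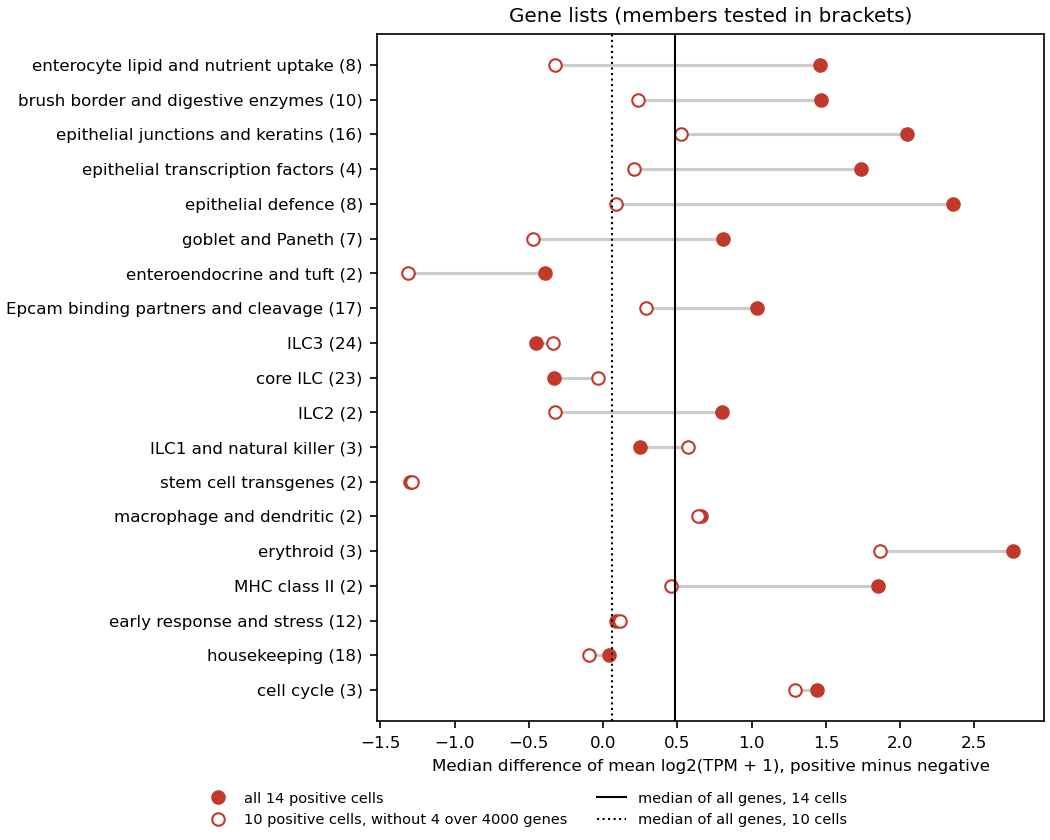
Median difference of mean log2(TPM + 1) over the tested members of 19 gene lists, with all 14 positive cells (filled) and with 10 (open); lines mark the median of all genes. The epithelial lists lie at 0.81 to 2.36 with the 4 cells and at -0.47 to 0.52 without them, while the ILC3 list lies below 0 in both.

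The proportions of the epithelial markers were compared with those in cell 1-1. Of the 149 markers 41 were at 100 TPM or more in 1-1. All 41 were detected in 27-1, where their median was 15.5% of the level in 1-1 and 97.6% of them lay within 3-fold of that median. Epcam in 27-1 was at 15.3% of 1-1.

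In 23-1, 33 of the 41 markers were above 0, with a median of 1.34% of the level in 1-1 and 87.9% within 3-fold of it, and Epcam was at 1.26%. In 36-1 it was 21 of 41 markers at a median of 0.367%, all within 3-fold, and Epcam at 0.469%. In 42-1 and 21-1 the markers were at medians of 81.3% and 46.2% of 1-1, and 63.3% and 64.7% of those above 0 lay within 3-fold. The other positive cells had 44.4% (19-1) to 84% (7-1) within 3-fold, over 9 to 28 markers. The negative cells had 0% to 77.8%, the highest in 4-1 over 18 markers, so the 2 groups overlapped in this too. This measure was chosen after the values were seen.

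Markers held by only 1 of the cells 1-1, 21-1 and 42-1 were then counted in the other cells. This count, too, was added after the values were seen. Those at 10 TPM or more in 1-1 and under 1 TPM in both 21-1 and 42-1 numbered 15, among them Ocln, Gpa33, Crb3, Apoc3 and Mttp. Of these 15, 27-1 held 11 and 23-1 held 5, the other positive cells at or under 16.4 TPM of Epcam held 0 to 2, and negative cells held 0 to 2. The 5 markers that only 21-1 held and the 4 that only 42-1 held were detected in 0 of the 11 positive cells besides 1-1, 21-1 and 42-1, and at most 1 of each set was detected in a negative cell. Whether RNA or reads passed between wells was not tested.

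**Figure D4:**
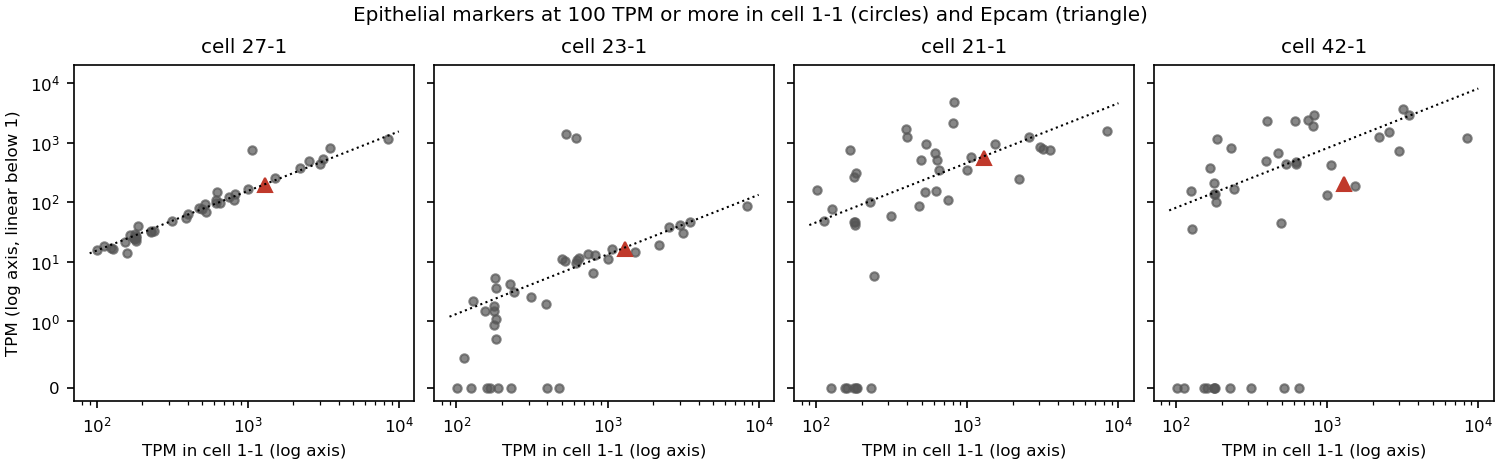
TPM of 41 epithelial markers in 27-1, 23-1, 21-1 and 42-1 against their TPM in 1-1, with a dotted line at the median ratio and Epcam as a triangle. Points of 27-1 lie along a line at 15.5% of 1-1, and those of 21-1 and 42-1 scatter around theirs.

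RNA of red blood cells moved with Epcam in 3 of the 4 cells. The summed TPM of 5 haemoglobin genes (Hba-a1, Hba-a2, Hbb-b1, Hbb-b2 and Beta-s, near-identical copies whose single values are uncertain) made up 31.7% of all TPM in 1-1, 7.99% in 21-1 and 6.01% in 27-1. In 42-1 it was 0.00395%. The other positive cells ranged from 4.44 to 5048 TPM and the negative cells from 0 to 1205 TPM, so the groups overlapped. Alas2, the heme synthesis enzyme of red cell precursors, was detected in 6 of 14 and 0 of 21 cells.

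In 27-1 the haemoglobin sum was at 18.9% of 1-1, in 23-1 at 1.59% and in 36-1 at 0.379%, where the epithelial medians were 15.5%, 1.34% and 0.367%. In 7-1 (0.388% and 0.479%), 8-1 (0.745% and 0.577%) and 2-1 (0.827% and 0.578%) the 2 percentages also lay near each other. They were 25.2% and 46.2% in 21-1, and 0.176% and 0.354% in 35-1. In the rest of the positive cells the 2 percentages lay far apart. They were 0.0124% and 81.3% in 42-1, 0.0523% and 0.278% in 34-1, and 0.0014% and 0.295% in 19-1. In 26-1 they were 0.0256% and 0.362%, and in 33-1 0.0512% and 0.266%. The erythroid list had 5 of 7 genes in the tables and 3 tested, all higher with a median of 2.76, and 2 higher with 1.87 without the 4 cells, beside 31.9% and 20.7% of all genes. Its summed level ran from 4.44 to 194862 TPM in positive and from 0 to 1132 TPM in negative cells. Its part in the differences was not tested.

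**Figure D5:**
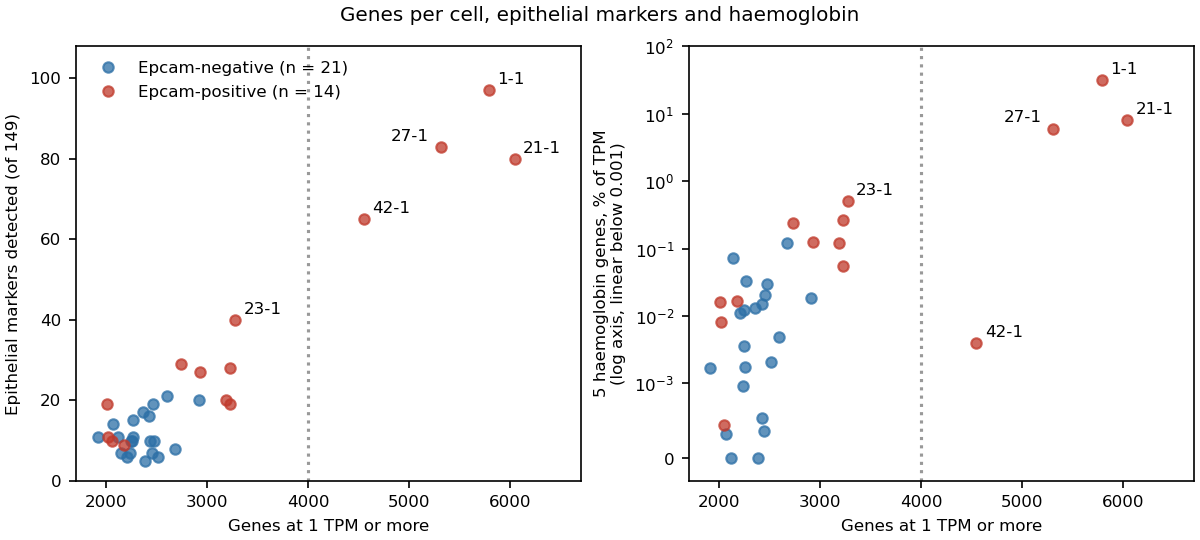
Epithelial markers at 1 TPM or more (left) and the share of TPM in 5 haemoglobin genes (right) against genes per cell; the dotted line marks 4000 genes. The 4 cells to its right hold 65 to 97 epithelial markers, and of these 42-1 lacks the haemoglobin of the other 3.

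Most antigen presentation genes of class II were highest among positive cells in 1-1, but single negative cells held more Cd74 and H2-Ab1. H2-Aa was at 262 TPM in 1-1, 34.2 TPM in 27-1 and 4.43 TPM in 23-1, and listed at 0 in every negative cell. Cd74, the class II invariant chain, was at 2372 TPM in 1-1, but the negative cell 10-1 held 4746 TPM, and its difference of 2.33 was 0.67 without the 4 cells. H2-Ab1, a class II beta chain, was at 212 TPM in 1-1 and at 523 TPM in the negative cell 5-1. Of the class II list 2 of 10 genes were tested and both were higher, with a median of 1.85. Without the 4 cells 0 were higher, with a median of 0.46, beside 31.9% and 20.7% of all genes. In R9 cells with no title ending the summed list had medians of 2241 TPM in Epcam-positive and 1628 TPM in Epcam-negative cells. Of 4 class II genes tested in WT cells 0 were higher and 3 lower, with a median of -1.64, beside 44.5% and 8.26% of all genes.

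Markers of other cells the gate could hold were present in some cells of both groups. The stromal, endothelial, mast cell and enteric glia lists gave 0 members tested, and their highest summed levels in a positive cell were 80.1, 370.5, 395.7 and 0.773 TPM. In a negative cell the highest levels were 513, 43.6, 616 and 162 TPM in the same order. The macrophage and dendritic list had 7 of 13 genes under 1 TPM in every cell. Its member Lyz2 was detected in 9 of 14 and 1 of 21 cells, with a difference of 1.92 that was 1.98 without the 4 cells, and it reached 1874 TPM outside them; reads of Lyz1 and Lyz2 cannot be told apart with certainty. The summed level of that list reached 1875 TPM in positive and 1204 TPM in negative cells, and that of the neutrophil list 64.7 and 1663 TPM.

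The B and plasma cell list had 7 of 10 genes in the tables and 1 tested, Xbp1, a factor of plasma cells and other secretory cells. It was detected in 13 of 14 positive and 21 of 21 negative cells, with a difference of 1.32, or 0.71 without the 4 cells. The summed level of the list had medians of 562 TPM in positive and 3.83 TPM in negative cells, with highest values of 1610 and 949 TPM, so the groups overlapped. Its part in the differences was not tested.

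ILC3 genes were lower on balance, with and without the 4 cells. Of 29 listed genes 24 were tested, 3 were higher by at least 1 and 9 lower, beside 31.9% and 8.04% of all genes. Without the 4 cells 4 were higher and 10 lower, beside 20.7% and 17.1%. The medians were -0.45 and -0.34. Averaged over the list, mean log2(TPM + 1) was 3.57 ± 0.86 (SD over 14 cells) in positive and 3.88 ± 0.57 (SD over 21 cells) in negative cells, a gap smaller than the spread over cells.

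Rora, a nuclear receptor that ILCs need, was lower by a difference of -2.15 (-1.73 without the 4 cells), with medians of 183 and 1184 TPM. Its values overlapped, from 1.3 to 1587 TPM and from 2.02 to 2591 TPM.

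Receptors on ILC3s varied widely inside both groups. Il23r, the interleukin 23 receptor chain, was at 2523 TPM in 27-1, 154 TPM in 42-1, 2.25 TPM in 1-1 and 1.94 TPM in 21-1, so the 4 cells held the highest value of the 35 and values near the lowest. Its difference was -1.19, or -1.42 without them. Kit, the stem cell factor receptor, was at 100 TPM or more in 4 of 14 positive and 13 of 21 negative cells, with a difference of -2.07 or -2.51. Ccr6, a chemokine receptor of lymphoid tissue-inducer cells, differed by -0.69 or -0.92.

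Ltb, the membrane lymphotoxin chain, was among the highest genes in both groups, from 52.5 through 2459 to 14146 TPM in positive and from 739.8 through 6163 to 14132 TPM in negative cells. The difference was -1.02, and -0.63 without the 4 cells. Tmem176a and Tmem176b, ion channel genes that are high in ILC3s, differed by -1.53 and -1.37 (-1.34 and -1.31 without the 4 cells). Both were detected in 35 of 35 cells.

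The members that went higher were Gpr183, Nrp1 and Tox. Gpr183, an oxysterol receptor that places ILC3s in lymphoid tissue, had medians of 319 and 107 TPM, with a difference of 1.43 or 1.97 without the 4 cells. Nrp1, a guidance receptor seen on lymphoid tissue-inducer cells, was detected in 7 of 14 and 3 of 21 cells, with 1.46 or 1.06. Tox, a factor of early ILCs, was detected in 9 of 14 and 11 of 21 cells, with 1.13 or 1.36. The cytokine gene Il22 was detected in 5 of 14 cells, at most 11 TPM, and 8 of 21 cells, where it reached 882 TPM.

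Core ILC genes lay on both sides of 0. Of 26 genes 23 were tested, 3 were higher and 6 lower, with a median of -0.33, and 5 and 4 with a median of -0.03 without the 4 cells. The shares of all genes were 31.9% and 8.04%, and 20.7% and 17.1% without the 4 cells. Id2, the inhibitor that all ILCs need, was at 104 TPM in 27-1, 142 TPM in 1-1, 512 TPM in 42-1 and 1507 TPM in 21-1, and at 1223 to 9755 TPM in the other positive cells. Its difference of -1.22 was -0.27 without the 4 cells. Il7r had medians of 2196 and 1169.7 TPM and a difference of 0.64 or 1.34.

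Tcf7, a Wnt-pathway factor of ILC precursors, was the core gene with the largest difference. It ran from 0.601 through 157 to 2868 TPM in positive and from 0 through 2.02 to 833 TPM in negative cells, and it passed 100 TPM in 8 of 14 and 3 of 21 cells. The difference was 3.56, and 3.33 without the 4 cells. Ets1, another lymphoid factor, differed by 2.21 or 3.72. Thy1 (-1.95 or -1.62) and Gata3 (-2.09) were lower, and Gata3 was detected in 2 of 14 and 8 of 21 cells.

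Runx1 and Hoxa9, transcription factors of blood-forming cells, were detected in 35 of 35 cells. Both were low in 1-1, at 3.68 and 3.73 TPM, and in 27-1 they were at 638 and 998 TPM. Their medians were 249 and 345 TPM in positive and 614 and 758 TPM in negative cells. The differences were -1.28 and -1.33, and -1.19 and -1.38 without the 4 cells, and the groups overlapped.

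For the uptake, brush border and junction lists, cells with like numbers of genes gave smaller or opposite differences. Between 2011 and 2915 genes, the range that both groups cover, lay 5 positive and 20 negative cells, with medians of 2052 and 2373 genes, and the median difference of all genes was -0.36. The averaged level of the junction and keratin list there was higher by 0.21, that of the brush border list differed by -0.09 and that of the uptake list by -0.23, against 1.47, 1.12 and 0.66 over all cells. With the median over cells in place of the mean, these levels were higher by 0.53, 0.31 and 0.20 over all cells. Fabp1 (-0.88) changed sign in this range, as did 14 of the named genes with a difference of 1 or more over all cells, among them Krt8 (-0.26), Xbp1 (-0.45), Reg3g (-0.92), Nrp1 (-1.09), Ltb (0.29), Id2 (0.16) and Runx1 (0.31).

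Genes that every cell uses lay near 0 on balance. Of 18 housekeeping genes 2 were higher and 1 lower, with a median of 0.04, and 1 and 2 with a median of -0.10 without the 4 cells. The median of all genes was 0.49, and 0.06 without the 4 cells. Actb, the cytoplasmic actin, ran from 999 to 13496 TPM in positive and from 1244 to 12976 TPM in negative cells. Among 18 cell cycle genes 3 were tested, with 2 higher and 0 lower, and 2 and 1 without the 4 cells. Beside both lists, 31.9% of all genes were higher and 8.04% lower, and 20.7% and 17.1% without the 4 cells. Pcna, the replication clamp, differed by 3.35, or 2.94 without the 4 cells, and was detected in 12 of 14 and 13 of 21 cells. Birc5, a gene of dividing cells, was at 1 TPM or more in those 4 cells alone, at 13 to 959 TPM.

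The 15 largest higher differences were taken after the filter on detection and gene type that is given below for the named genes. Of these 15 genes, 3 were in the epithelial lists (Prap1, Defa24 and Lypd8), and Hbb-b2 (5.68) and Beta-s (5.15) were haemoglobin genes. The epithelial lists held 0.907% of the genes tested (53 of 5843). That share was taken before the filter, so it is not a matched background for the 15 genes. Mmadhc, a gene of vitamin B12 handling, differed by 5.48 and was detected in 14 of 14 and 6 of 21 cells, with 5.85 without the 4 cells. Lgals2, a galectin gene of the gut, differed by 4.61 or 2.58, and Oat, ornithine aminotransferase, by 3.99 or 2.47.

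Of the 15 largest lower differences, taken after the same filter with detection in negative cells, 0 were in the epithelial lists. Hmgn3, a chromatin protein gene, was lower by a difference of -4.15 (-4.39 without the 4 cells), with 100 TPM or more in 2 of 14 and 13 of 21 cells. Capg, an actin-capping protein gene, differed by -3.74 or -3.54, and Parp1, a DNA damage sensor, by -2.96 or -2.68.

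By detection, the genes most like Epcam over the 35 cells were Cldn7 and Bpnt1, each in the same state as Epcam in 31 cells. Bpnt1, a nucleotidase gene, was detected in 10 of 14 and 0 of 21 cells. Then came 9130401M01Rik, 2210404O07Rik, Mgst3, Cdc42ep5, Cldn3, Aldh1b1 and Actn4 with 30 cells and Mmadhc with 29. Since likeness was picked from all genes in the same cells, it describes these cells only.

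The same split in R9 cells with no title ending gave a different picture. In WT cells it gave a like picture for junction and keratin genes, but not for ILC3 genes. Among 32 R9 cells with no title ending, 3 held Epcam, at 15.4, 16.5 and 42 TPM, with 1905 to 2364 genes and 6 to 15 epithelial markers, inside the ranges of the 29 negative cells (1187 to 2989 and 3 to 23). Cldn7 was listed at 0 in all 32. Of 4740 genes 23.4% were higher and 29% lower, and of 4 junction and keratin genes tested 3 were higher, of 8 uptake genes 2 higher and 3 lower. Single genes held large shares there: Fabp1 was at 99248 TPM and Krt19 at 90792 TPM in the positive cell 7, and Krt8 at 122197 TPM in the negative cell 8.

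Among 22 WT cells, 9 held Epcam, from 1.28 through 31.2 to 1978 TPM. The WT cells came in a table of their own, so their levels are not compared with those of R9 cells. Of the 9 cells, 2 had over 4000 genes: 7518 genes with 120 epithelial markers, and 5261 genes with 82. The other 7 had 11 to 35 epithelial markers, and the cell with Epcam at 799 TPM and only 991 genes held 17. Of 3945 genes 44.5% were higher in the Epcam-positive WT cells and 8.26% lower. Of 14 junction and keratin genes tested 10 were higher and 0 lower, and of 23 ILC3 genes 7 were higher and 4 lower, with medians of 2.08 and 0.40 beside 0.79 for all genes. The haemoglobin sum was at most 1418 TPM in these 9 cells.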

How the data were processed

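Each sample is 1 cell, and the authors deposited 1 table of TPM values for 67 R9 cells and another for 31 WT columns, over 23420 gene symbols, with every column summing to 1000000. Per the submitters' processing notes, bcl2fastq, HISAT2 2.1.0, SAMtools 0.1.19, StringTie 1.3.4 and mm10 were used, with roles not given in the sources used here. Per the labels' protocols, amplification used the Discover-sc WTA Kit V2. TPM holds no depth, an exact 0 can be a failed estimate, and no gene symbol of the mitochondrial genome was found under the prefix mt-. Intervals (exact Clopper-Pearson, 95%) cover counting error only.

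Differences are mean log2(TPM + 1) in Epcam-positive minus Epcam-negative cells, over genes at 1 TPM or more in 5 or more cells; a difference of 1 or more was counted. Each group is 1 sample, so no test was run. The genes named are Epcam, the 15 genes with the largest differences either way that at least 50% of the higher group's cells held (predicted, mitochondrial and ribosomal protein genes left out), and up to 6 members of each of 27 lists; the text gives part of these, and other genes were chosen after their values were seen. Members and lists were chosen with earlier results of these data known. WT columns that matched at a Pearson r above 0.8 were averaged and counted once, which left 22 cells. Gene positions came from GENCODE M21 (464 of 468 named genes matched) and promoters from RefSeq. Tables were handled with pandas 2.3.3 and numpy 2.4.6 in Python 3.11.15, intervals with scipy 1.17.1 and plots with matplotlib 3.10.9, and the code was tested on simulated data. Alternatives varied the pseudocount, filter, detection limit, Epcam threshold, scaling and cells kept; leaving out the cells over 4000 genes for single genes was added after seeing the data. Values of some genes are not reported here.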

Additional observations from a re-analysis of the deposited data

Results flagged for a closer look

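Among the 9 Epcam-positive WT cells, the highest Epcam value of 1978 TPM stood far from the others: its gap to the next value was 0.597 of the whole range. The cut-off used flags about 1 in 20 groups by chance only for normally spread values and 1 measure. The Epcam values here were skewed, with a median of 31.2 TPM, and several measures were checked, so that rate does not apply. The cell had 5261 genes, 82 epithelial markers and 11 of 29 ILC3 markers.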

How the results depend on the processing

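With Epcam at 10 TPM or more (5 positive cells) the level differences were 2.20 for the uptake list, 3.00 for the brush border list and 3.47 for the junction and keratin list, against 0.66, 1.12 and 1.47. In the common range of genes per cell the brush border level changed sign to -0.094 and the uptake level to -0.23, while the junction level was 0.21. With the median over cells the 3 levels were 0.20, 0.31 and 0.53 in the order uptake, brush border and junction. Leaving out each cell in turn gave 0.44 to 0.75, 0.85 to 1.24 and 1.14 to 1.60 for these 3 lists, -0.42 to -0.17 for ILC3 and -0.25 to 0.00 for core ILC. Genes higher by at least 1 made up 31.9% in the main analysis, 9.25% with no filter, 11.9% with a pseudocount of 10 TPM, 20.7% without the cells over 4000 genes and 19.6% in the common range; genes lower made up 8.04%, 2.17%, 3.97%, 17.1% and 28.9%. In the common range 14 of 68 genes, each past a difference of 1 over all cells, reversed: Krt8 (-0.26), Krt20 (-0.21), Xbp1 (-0.45), Cdh1 (-0.028), Fabp2 (-1.26), Klf5 (-0.18), Reg3g (-0.92), Lyz1 (-0.10), Ltb (0.29), Nrp1 (-1.09), Id2 (0.16), Runx1 (0.31), Cd74 (-0.51) and H2-Ab1 (-0.12). Without the cells over 4000 genes Lyz1 reversed (-0.12). Only genes with a difference of 1 or more over all cells could be called reversed. Below that size, Fabp1 (0.87) changed sign to -1.40 and Cd3g (-0.05) to 0.21 without these cells. The cause was not tested. Scaling each cell over 250 common genes, or leaving out the highest cell of each group, reversed 0 of 68 by this rule. With the scaling Cd3g changed sign to 0.07. No paired analysis was possible because each sample is 1 cell and the result comes from no test. With no counts in the files, how depth limits these values cannot be given.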
